A study of Mus musculus with 6 samples.

Results

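The miR-106b-25 cluster (miR-106b, miR-93 and miR-25) and its paralog on the X chromosome, the miR-106a-363 cluster (miR-106a, miR-20b and miR-363), were followed in the aortas of atherosclerosis-prone mice with and without Dicer in endothelial cells (ECs). The members were chosen by name: the assays for mouse whose name equals 1 of these 6 miRNAs, leaving out the passenger strands, whose names end in a star. All 6 were found among the 596 mouse miRNA assays of the deposited table, and all 6 gave a signal in every aorta.

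The arrays covered 3 EC-Dicerflox mice (VE-Cadherin-CreERT2 Dicer1 flox/flox Apoe-/-) and 3 EC-DicerWT littermates (VE-Cadherin-CreERT2 Dicer1 WT/WT Apoe-/-). Both groups thus lacked apolipoprotein E, which makes mice prone to hyperlipidemia and atherosclerosis, and both carried CreERT2, a recombinase that acts after tamoxifen (TMX) is given and that the VE-cadherin promoter restricts to ECs. Both received TMX for 5 days, at 2 mg for every 20 g of body weight, and, from an age of 6 to 8 weeks, a high-fat diet (HFD) for 4 weeks. The labels give all mice as male, whereas the study's methods describe female mice. Dicer1 mRNA is not measured by these miRNA arrays, so that its deletion could not be checked in these data. The study itself reports less Dicer mRNA after TMX in whole aortas and in isolated aortic ECs of EC-Dicerflox mice. RNA was taken from the whole aorta, so that Dicer was deleted in 1 cell type among several that contributed RNA, and fewer ECs and less miRNA per EC cannot be told apart. The question of the design is which miRNAs of the arterial wall depend on endothelial Dicer.

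Dicer cuts the hairpin precursors of most miRNAs into short duplexes, of which the mature strand enters the silencing complex and recognizes target mRNAs mainly through its seed, bases 2 to 8. The clusters descend from a common ancestor with the miR-17 cluster on another chromosome and are known to promote proliferation and survival, among other ways by repressing the cell cycle inhibitor p21 and the proapoptotic protein Bim. In RefSeq (mouse build GRCm38.p6), the hairpins of the miR-106b-25 cluster lie at chr5:138165321-138165818 on the minus strand inside Mcm7, which encodes a subunit of the replicative DNA helicase. Those of the miR-106a-363 cluster lie at chrX:52741693-52742567 on the minus strand, where Mir106a overlaps the long non-coding RNA gene Kis2 and neither Mir20b nor Mir363 overlaps another gene. The deposited table names no genome build, and these positions are those of the RefSeq sequences.

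The mature sequences of the 6 miRNAs are printed because they divide the members by seed and not by cluster. They were taken from RefSeq (GRCm38.p6, 6 of 6 matched), with the arm that carries the older name without a star, and run 5′ to 3′ with the seed in capitals. MiR-17 is added as the relative closest in sequence to a member.

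miR-106b: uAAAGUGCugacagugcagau
miR-93: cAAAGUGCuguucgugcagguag
miR-25: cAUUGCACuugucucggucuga
miR-106a: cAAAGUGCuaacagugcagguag
miR-20b: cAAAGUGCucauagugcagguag
miR-363: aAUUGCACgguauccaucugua
miR-17: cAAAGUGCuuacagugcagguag

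MiR-106b, miR-93, miR-106a and miR-20b share the seed AAAGUGC, and miR-25 and miR-363 share the seed AUUGCAC. Each cluster therefore holds members of both seed families in the same order. Counted from 1 at the 5′ end and compared without gaps, miR-106a differs from its paralog miR-106b at 3 of 21 bases (C1U, A10G and G20A) and miR-20b from miR-93 at 3 of 23 bases (C10G, A11U and A13C). MiR-363 differs from miR-25 at 13 of 22 bases, all outside the seed. MiR-106a differs from miR-17 at 1 of 23 bases only (A10U).

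MiRNAs were measured by quantitative real-time PCR arrays, and the table gives the CT, the PCR cycle at which the signal crosses a threshold, so that a higher CT means less miRNA and 1 cycle corresponds to a factor of 2 at full amplification. A CT of 40 stands for no signal. The delta CT is the CT minus the mean CT of the control RNAs U6 and snoRNA135 in the same aorta, and the log2 fold change, EC-Dicerflox over EC-DicerWT, is the delta CT of EC-DicerWT minus that of EC-Dicerflox. Replicate 3 stood apart in both groups: its median CT over the 350 miRNAs with a signal in all aortas was 28.2 in the EC-Dicerflox and 27.5 in the EC-DicerWT group, against 26.4 to 26.8 in the other 4 aortas. The fold changes, the differences between paralogs and the likeness of the members are therefore also given without these 2 aortas.

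In the miR-106b-25 cluster, miR-106b had a CT of 22.8, 22.2 and 24.7 in EC-Dicerflox replicates 1, 2 and 3 and of 21.9, 23.0 and 24.4 in EC-DicerWT replicates 1, 2 and 3. MiR-93 had a CT of 23.6, 23.0 and 24.9 in EC-Dicerflox and of 23.0, 23.5 and 24.7 in EC-DicerWT aortas. MiR-25 had a CT of 24.9, 24.3 and 26.6 in EC-Dicerflox and of 24.4, 25.0 and 26.8 in EC-DicerWT aortas. For each of these miRNAs, replicate 3 had the highest CT of its group and the groups overlapped. After subtraction of the control RNAs, the delta CT of miR-106b was 3.95 ± 0.497 (SD, n = 3) in EC-Dicerflox and 3.95 ± 0.847 (SD, n = 3) in EC-DicerWT mice. For miR-93, it was 4.58 ± 0.260 (SD, n = 3) against 4.62 ± 0.478 (SD, n = 3). For miR-25, it was 6.02 ± 0.409 (SD, n = 3) against 6.26 ± 0.803 (SD, n = 3). The difference between the group means was smaller than either SD for all 3 miRNAs.

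In the miR-106a-363 cluster, miR-106a had a CT of 21.2, 20.6 and 22.5 in EC-Dicerflox and of 20.9, 21.0 and 22.3 in EC-DicerWT replicates 1, 2 and 3. MiR-20b had a CT of 25.0, 24.4 and 26.2 in EC-Dicerflox and of 24.3, 24.8 and 25.8 in EC-DicerWT aortas. Both followed the order seen in the miR-106b-25 cluster, with replicate 3 highest in each group. MiR-363 had a CT of 29.9, 31.3 and 29.1 in EC-Dicerflox and of 30.4, 27.9 and 33.2 in EC-DicerWT aortas. Among the EC-Dicerflox aortas, replicate 3 thus had the lowest CT of miR-363 and the highest CT of the other 5 members. The delta CT of miR-106a was 2.18 ± 0.267 (SD, n = 3) in EC-Dicerflox and 2.28 ± 0.380 (SD, n = 3) in EC-DicerWT mice. For miR-20b, it was 5.91 ± 0.223 (SD, n = 3) against 5.83 ± 0.352 (SD, n = 3), and for miR-363 10.8 ± 1.86 (SD, n = 3) against 11.4 ± 2.34 (SD, n = 3).

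**Figure D1:**
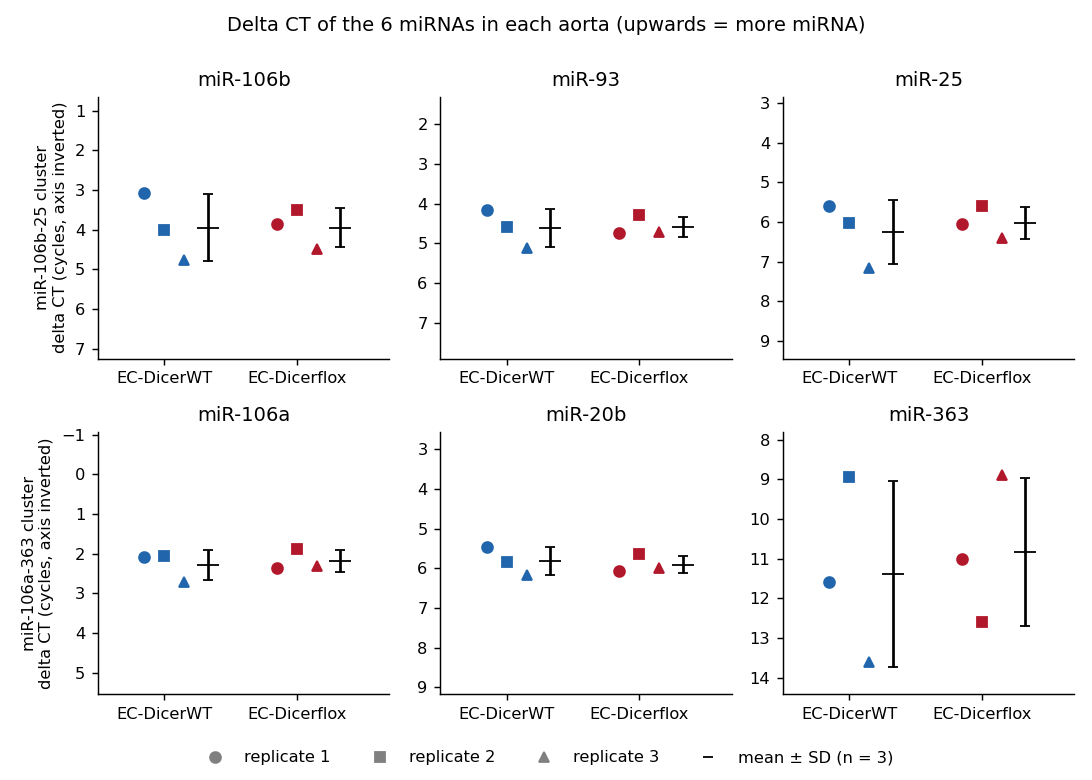
Delta CT in cycles (vertical axis, inverted so that more miRNA is higher, each panel spanning the same number of cycles) of the 6 miRNAs in 3 EC-DicerWT (blue) and 3 EC-Dicerflox (red) aortas, with symbol shapes for replicates 1 to 3 and the mean ± SD beside the points. The groups overlap in every panel, and miR-363 spreads over 4.71 cycles against 0.703 to 1.69 cycles for the other 5 miRNAs.

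Between assays, the CT also depends on the efficiency of each assay, which is not given in the sources used here, so that the following order is one of signals and not of molecule numbers. MiR-106a had the lowest mean delta CT over the 6 aortas with 2.23, followed by miR-106b with 3.95, miR-93 with 4.60, miR-20b with 5.87, miR-25 with 6.14 and miR-363 with 11.1. Of the 350 miRNAs with a signal in all aortas, miR-106a took place 49, miR-106b 79, miR-93 94, miR-20b 128, miR-25 134 and miR-363 267 from the strongest signal. MiR-106b and miR-93 overlapped in range over the 6 aortas, but the CT of miR-93 was 0.24 to 1.09 cycles higher in every aorta. MiR-20b and miR-25 did not keep an order: the CT of miR-25 minus that of miR-20b lay between -0.062 and 0.99 cycles and was below 0 in EC-Dicerflox replicates 1 and 2. MiR-363 was the weakest member in every aorta, with a CT at least 2.49 cycles above that of miR-25.

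The loss of Dicer in ECs was not accompanied by a detectable difference in any of the 6 miRNAs in the whole aorta. None of the members passed an adjusted p-value of 0.05 or an unadjusted p-value of 0.05 in limma, and for none did the groups separate. The background was low as well: of the 461 miRNAs with a signal in at least 1 aorta, 3.04% (14 miRNAs) had an unadjusted p-value under 0.05, 0% had an adjusted p-value under 0.05 in limma (2 miRNAs without EC-Dicerflox replicate 1 and 1 without EC-Dicerflox replicate 3) and 10.4% had groups whose delta CT values did not overlap. The log2 fold change was 0.00050 (standard error 0.54) for miR-106b, 0.036 (0.35) for miR-93 and 0.24 (0.50) for miR-25. It was 0.10 (0.32) for miR-106a, -0.077 (0.30) for miR-20b and 0.54 (1.51) for miR-363. Unadjusted limma p-values ranged from 0.649 for miR-25 to 0.999 for miR-106b, and the adjusted p-values from 0.929 to 0.999. The estimates of 5 members were above 0 and that of 1 was below, with a median of 0.069, against 251 above and 210 below and a median of 0.082 over all 461 miRNAs.

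The confidence intervals show which changes these arrays could not separate from 0. The 95% interval of the log2 fold change was narrowest for miR-20b, from -0.83 to 0.68, and for miR-106a, from -0.70 to 0.90, that is, from 0.617-fold to 1.86-fold. For miR-93 it ran from -0.84 to 0.91, for miR-25 from -1.02 to 1.50 and for miR-106b from -1.35 to 1.36. For miR-363 it ran from -3.28 to 4.37, from 0.103-fold to 20.6-fold, so that this miRNA was hardly constrained. In exact permutation tests over the 6 aortas, the two-sided p was 1 for miR-106b and miR-93, 0.8 for miR-25 and miR-106a, and 0.7 for miR-20b and miR-363, where 0.1 is the smallest p that 3 against 3 aortas allow. The sign of each estimate was not stable. Without the replicates 3 of both groups, all 6 estimates were below 0, from -0.014 for miR-25 to -1.54 for miR-363, the latter with an unadjusted limma p-value of 0.295. With snoRNA202 alone as the control RNA, the estimates of miR-106b (-0.16), miR-93 (-0.12) and miR-106a (-0.060) turned below 0.

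Between aortas with the same replicate number, a pairing that was assumed, 5 of the 6 members differed in the same direction. All were measured against the same control RNAs. In replicate 1, EC-Dicerflox minus EC-DicerWT was -0.80 log2 units for miR-106b, -0.59 for miR-93, -0.45 for miR-25, -0.28 for miR-106a and -0.60 for miR-20b, all below 0. In replicate 2, these differences were 0.52, 0.31, 0.42, 0.17 and 0.20, and in replicate 3 they were 0.28, 0.39, 0.75, 0.41 and 0.17, all above 0. The sign thus differed between the pairs. MiR-363 had the opposite sign in replicates 1 and 2, with 0.58 and -3.66 log2 units, and a difference of 4.71 in replicate 3.

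**Figure D2:**
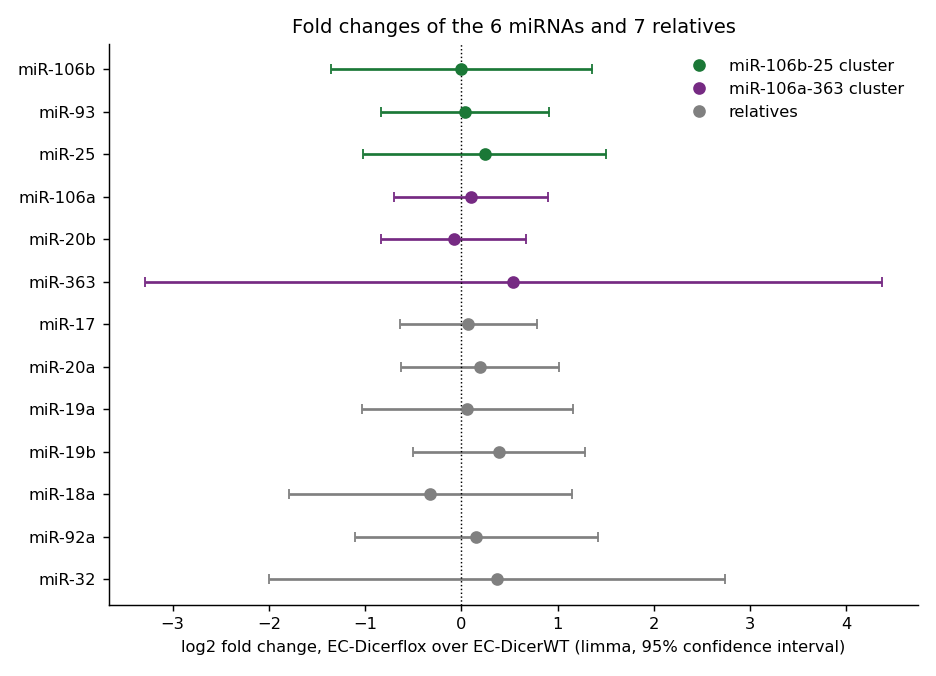
Log2 fold change, EC-Dicerflox over EC-DicerWT (horizontal axis), of the 6 miRNAs and of 7 relatives by seed or cluster with a signal in all aortas; points are limma estimates and bars 95% confidence intervals from 3 against 3 aortas. Every interval includes 0, and that of miR-363 is the widest, from -3.28 to 4.37.

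The clusters were compared through their paralogs, miR-106a with miR-106b, miR-20b with miR-93 and miR-363 with miR-25, as the difference in CT within an aorta. This difference needs no control RNA, and it is independent of the amount of RNA loaded only where both assays amplify equally, which was not tested. MiR-20b lay above miR-93 by 1.32, 1.37 and 1.28 cycles in EC-Dicerflox and by 1.31, 1.27 and 1.06 cycles in EC-DicerWT replicates 1, 2 and 3. This was the steadiest of the 3 differences, with 1.32 ± 0.0446 cycles (SD, n = 3) in EC-Dicerflox and 1.21 ± 0.135 cycles (SD, n = 3) in EC-DicerWT mice. MiR-106a lay below miR-106b, by -1.51, -1.62 and -2.17 cycles in EC-Dicerflox and by -0.99, -1.97 and -2.04 cycles in EC-DicerWT mice. In this pair, the EC-DicerWT replicate 1 stood apart with the smallest difference. MiR-363 lay above miR-25 by 4.96, 7.01 and 2.49 cycles in EC-Dicerflox and by 5.99, 2.92 and 6.45 cycles in EC-DicerWT mice.

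For none of the 3 paralog pairs did the difference separate the genotypes. EC-Dicerflox minus EC-DicerWT was 0.11 cycles for miR-20b minus miR-93 (exact permutation test, two-sided p = 0.2), -0.10 cycles for miR-106a minus miR-106b (exact permutation test, two-sided p = 0.8) and -0.30 cycles for miR-363 minus miR-25 (exact permutation test, two-sided p = 0.9). MiR-20b minus miR-93 was higher in the EC-Dicerflox aorta in all 3 pairs with the same replicate number, a pairing that was assumed. Its two-sided p in the exact sign-flip test over pairs was 0.25, the smallest that 3 pairs allow. The same exact test gave p = 0.75 for miR-106a minus miR-106b and p = 1 for miR-363 minus miR-25. Without the replicates 3 of both groups, EC-Dicerflox minus EC-DicerWT was 0.058 cycles for miR-20b minus miR-93, -0.084 cycles for miR-106a minus miR-106b and 1.53 cycles for miR-363 minus miR-25. The mean CT of the miR-106a-363 cluster minus that of the miR-106b-25 cluster was 1.59, 2.25 and 0.53 cycles in EC-Dicerflox and 2.10, 0.74 and 1.82 cycles in EC-DicerWT replicates 1, 2 and 3. The groups overlapped, with means of 1.46 ± 0.868 cycles (SD, n = 3) and 1.55 ± 0.720 cycles (SD, n = 3). EC-Dicerflox minus EC-DicerWT was -0.096 cycles, but 0.50 cycles without the replicates 3 of both groups and between -0.50 and 0.37 cycles with 1 aorta left out, so that its direction was not stable. The spread was smaller without miR-363 and its paralog: without miR-363 and miR-25, the difference was -0.22 ± 0.195 cycles (SD, n = 3) in EC-Dicerflox and -0.23 ± 0.342 cycles (SD, n = 3) in EC-DicerWT mice. As a mean over members, this comparison was not tested.

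**Figure D3:**
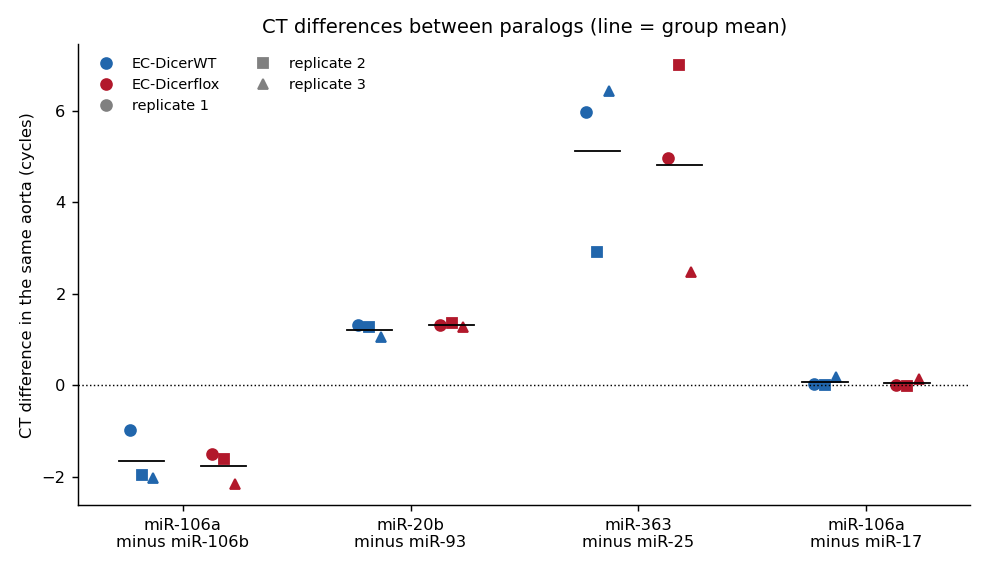
CT difference in cycles within each aorta (vertical axis) for the 3 paralog pairs and for miR-106a and miR-17, in EC-DicerWT (blue) and EC-Dicerflox (red) mice, with symbol shapes for replicates 1 to 3 and group means as lines. The values of miR-20b minus miR-93 lie between 1.06 and 1.37 and those of miR-106a minus miR-17 between -0.021 and 0.18, while miR-363 minus miR-25 runs from 2.49 to 7.01.

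The likeness of expression patterns was described by the SD, over the 6 aortas, of the CT difference of each pair of miRNAs, with a small SD meaning that both rose and fell together. MiR-93 and miR-20b, which lie on different chromosomes, were closest to each other among the 349 other miRNAs with a signal in all aortas, with an SD of 0.11 cycles, against a median of 0.55 cycles over all partners of miR-93. Their rank was 1 in both directions, and with 1 aorta left out it lay between 1 and 10 for miR-93 and between 1 and 7 for miR-20b. Neighbours in the genome were not always this close. MiR-93 and miR-106b, whose hairpins both lie inside Mcm7, had an SD of 0.32 cycles. This ranked miR-106b at place 61 among the partners of miR-93, and miR-93 at place 14 among those of miR-106b. MiR-93 and miR-25 of the same cluster had an SD of 0.28 cycles, with miR-25 at place 41 for miR-93 and miR-93 at place 14 for miR-25. MiR-106b and miR-25 had an SD of 0.24 cycles, at places 4 and 6 of each other's lists. MiR-106a and miR-20b of the X-linked cluster had an SD of 0.18 cycles, at places 18 and 10.

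These SDs and places depended on the replicates 3, and without them pairs moved both ways. MiR-93 and miR-25 came closer, to an SD of 0.074 cycles, with miR-25 at place 3 for miR-93 and miR-93 at place 2 for miR-25. MiR-93 and miR-106b had an SD of 0.21 cycles, with miR-106b at place 32 for miR-93 and miR-93 at place 12 for miR-106b. MiR-93 and miR-20b had an SD of 0.042 cycles and place 1 in both directions. Without EC-DicerWT replicate 3 alone, the SDs of miR-93 were already 0.15 cycles with miR-25 and 0.040 cycles with miR-20b. The SD of miR-106b and miR-25 was 0.23 cycles, at places 16 and 60, and that of miR-106a and miR-20b was 0.19 cycles, at places 46 and 24.

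Leaving out miR-363, the 4 pairs within a cluster had SDs from 0.18 to 0.32 cycles and the 6 pairs across clusters from 0.11 to 0.44 cycles, so that both sets overlapped. Without the replicates 3, the SDs ran from 0.074 to 0.23 cycles within a cluster (median 0.20) and from 0.042 to 0.41 cycles across clusters (median 0.19), against medians of 0.26 and 0.36 cycles over all 6 aortas. Over all 6 aortas, the pairs across clusters with the largest SDs involved miR-106b, with 0.44 cycles for miR-106a and 0.40 cycles for miR-20b, and without the replicates 3 these were 0.41 and 0.23 cycles. Without EC-DicerWT replicate 1 alone, the SD of miR-106b and miR-106a was 0.28 cycles. MiR-106b then moved from place 130 to place 63 for miR-106a, whereas miR-106a moved from place 35 to place 41 for miR-106b. All 5 pairs with miR-363 had SDs from 1.85 to 2.05 cycles, and from 1.61 to 1.86 cycles without the replicates 3. The spread of the delta CT of miR-363 within the groups was 2.12 cycles, higher than that of 95.1% of the 350 miRNAs, whose median was 0.48 cycles. For miR-20b, it was 0.29 cycles, higher than that of 26.0%.

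Among the miRNAs that are not members, the 3 nearest were determined for each member. For miR-106b these were miR-15b of the miR-15/16 family (SD 0.17 cycles), the erythroid miR-486 (0.23 cycles) and miR-18a of the miR-17 cluster (0.24 cycles). For miR-25 they were again miR-15b (0.11 cycles), followed by miR-92a, which carries the same seed (0.16 cycles), and miR-130b (0.18 cycles). MiR-93 was nearest to miR-324-3p, miR-7a and miR-152, all with an SD of 0.15 cycles, and miR-20b to miR-152 (0.13 cycles), miR-652 (0.14 cycles) and miR-17 (0.16 cycles). MiR-152 was also among the nearest of miR-106a (0.11 cycles), together with miR-17 and miR-186*. Without the replicates 3, the SDs of miR-15b were 0.15 cycles with miR-106b and 0.12 cycles with miR-25, close to those over all 6 aortas, at places 4 and 9. MiR-363 had no close partner, its nearest being miR-668 with 1.15, miR-1195 with 1.38 and miR-467e with 1.38 cycles. Without the replicates 3, miR-668 had an SD of 1.26 cycles, at place 24. These SDs rest on 6 aortas that share the loading of each array, and they are descriptions without a test.

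MiR-106a and miR-17, printed above, differ by the single base A10U and gave nearly the same CT in every aorta. MiR-17 had a CT of 21.2, 20.6 and 22.4 in EC-Dicerflox and of 20.9, 21.0 and 22.1 in EC-DicerWT replicates 1, 2 and 3. The CT of miR-106a minus that of miR-17 was 0.010, -0.021 and 0.15 cycles in EC-Dicerflox and 0.032, 0.010 and 0.18 cycles in EC-DicerWT mice, with an SD of 0.083 cycles over all 6 and of 0.022 cycles without the replicates 3. MiR-17 was the nearest of 349 miRNAs to miR-106a, and it lay between places 1 and 5 with 1 aorta left out and at place 1 without the replicates 3. Whether either assay also detected the other miRNA was not tested, and no value here separates their signals. MiR-20b and miR-20a differ at 2 bases (C1U and C10U), and the CT of miR-20b was 1.90 to 2.46 cycles above that of miR-20a in the 6 aortas. Whether such CT differences follow from sequence, level or assay efficiency was not tested.

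**Figure D4:**
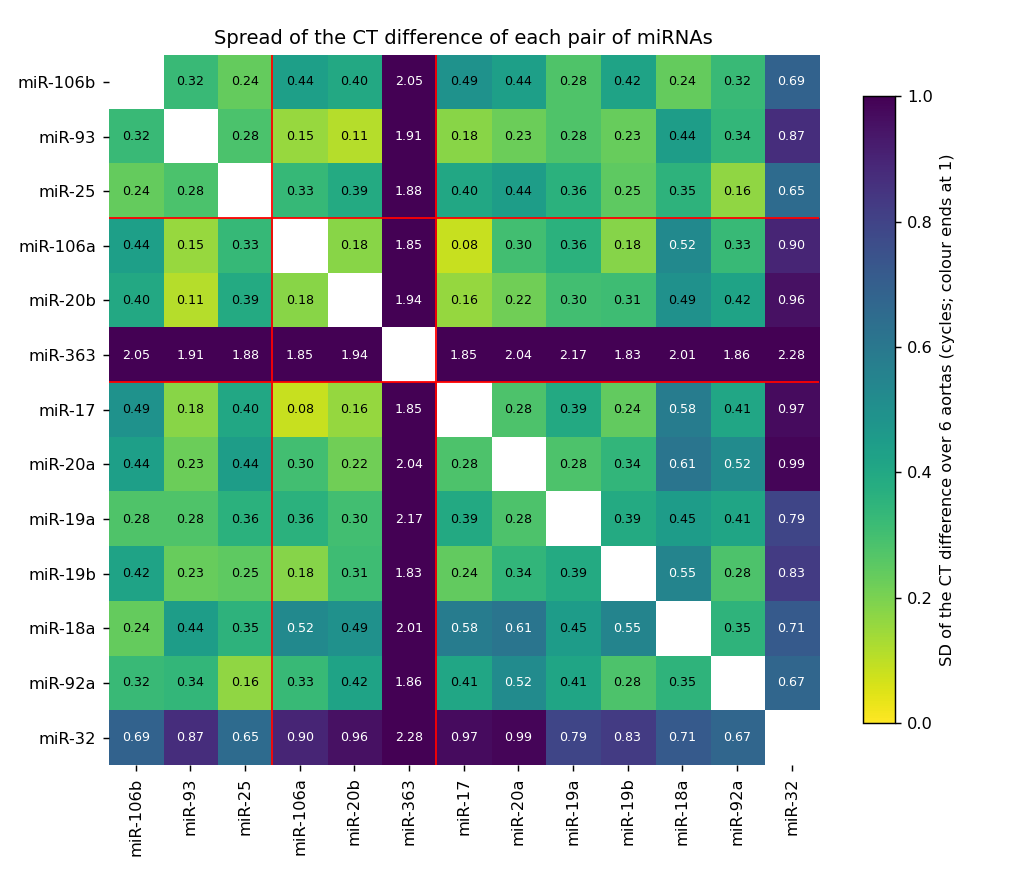
SD in cycles, over 6 aortas, of the CT difference of each pair among the 6 miRNAs and 7 relatives (both axes; colours end at 1, numbers give the SD; red lines part the miR-106b-25 cluster, the miR-106a-363 cluster and the relatives). The smallest SDs are those of miR-106a with miR-17 (0.08) and miR-93 with miR-20b (0.11), and every pair with miR-363 is above 1.8.

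Of the relatives by seed or by cluster, 8 were tested, with unadjusted limma p-values between 0.318 and 0.891. Of these 8 estimates, 7 were above and 1 was below 0. Among the miRNAs with the seed AAAGUGC, the log2 fold change was 0.072 for miR-17 (standard error 0.28) and 0.19 for miR-20a (0.32). Among those with the seed AUUGCAC, miR-92a, which is encoded in both the miR-17 and the miR-106a-363 clusters, had a log2 fold change of 0.15 (0.50) and the weakly detected miR-32 of 0.37 (0.94). MiR-367 was at a CT of 40 in all 6 aortas, and miR-92b and miR-6383, which carries the seed AAAGUGC, were not analysed here. MiR-19b, also made from both of these loci, had a log2 fold change of 0.39 (0.36), miR-19a of 0.062 (0.43) and miR-18a of -0.32 (0.58).

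The miR-106a-363 cluster encodes miR-18b between miR-106a and miR-20b, and its signal did not follow its neighbours. MiR-18b was at 40, 32.2 and 26.8 in EC-Dicerflox and at 40, 40 and 32.3 in EC-DicerWT replicates 1, 2 and 3, so that it was seen in 3 of 6 aortas. In EC-Dicerflox replicate 3, its CT was below the 30.3 of miR-18a, which differs from it by 2 of 23 bases (U18A and U20A). Of the passenger strands of the 6 hairpins, which Dicer releases together with the mature strands, only miR-20b* was measured, and it was at a CT of 40 in all 6 aortas.

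Markers of the cell types of the aorta were compared as the summed level of each list, in log2 units relative to U6 and snoRNA135. The endothelial list (miR-126-3p and miR-126-5p, 2 of 2 with a signal in all aortas) lay between 1.05 and 1.72 in EC-Dicerflox and between 0.84 and 0.91 in EC-DicerWT mice, which did not overlap, with unadjusted limma p-values of 0.193 and 0.0727 for the single miRNAs. Among all 461 miRNAs tested singly, the groups did not overlap for 10.4%. The lists of smooth muscle (miR-143 and miR-145, 2 of 2; 4.30 to 5.56 and 4.23 to 4.83), leukocytes (4 of 4; -0.89 to -0.23 and -0.54 to 0.32), striated muscle (3 of 5; 0.043 to 0.46 and 0.023 to 0.16) and erythroid cells (miR-451 and miR-486, 2 of 3, the third was not analysed here; -2.21 to -1.23 and -2.42 to -0.70) overlapped between the groups. The CT of miR-145 lay between 14.69 and 14.96 in all aortas, whereas that of miR-143 was highest in the replicates 3 of both groups (18.1 and 17.9). Of the 4 leukocyte markers, only miR-142-5p had an unadjusted limma p-value under 0.05. Its log2 fold change was -0.996 (limma, unadjusted p = 0.00989), but this miRNA did not pass after adjustment. The log2 fold change was -0.38 for miR-142-3p, -0.43 for miR-150 and, in the opposite direction, 0.17 for miR-223. Over all 461 miRNAs, 3.04% had an unadjusted limma p-value under 0.05. Of the striated muscle markers, miR-208b was at a CT of 40 in all aortas. The erythroid list was lowest in the replicates 3 of both groups, -2.21 and -2.42. The delta CT of miR-106b and miR-25 was highest in the replicates 3 of both groups, whereas in EC-Dicerflox mice that of miR-93, miR-106a and miR-20b was highest in replicate 1 and that of miR-363 was lowest in replicate 3. This order holds for the mean of U6 and snoRNA135, whose CT values rose unequally in EC-Dicerflox replicate 3. U6 was at 16.4 against 15.7 in replicate 1, and snoRNA135 at 24.0 against 22.1. The part of these cell types in the levels of the clusters was not tested.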

How the data were processed

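According to the study's methods, total RNA of whole aortas went through Megaplex (rodent) reverse transcription and pre-amplification before being run on TaqMan MicroRNA cards. The authors deposited unnormalized CT values, with 40 for no signal; how thresholds were set is not given in the sources used here. Assay numbers of 7 digits (335 miRNA assays, all 6 members) and of 6 digits (261) were taken as the 2 cards. The 6 columns were matched to samples by name (0 unused).

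Delta CT values of every miRNA with a signal in at least 1 sample were fitted together by limma 3.58.1 under R 4.3.3 (lmFit, then eBayes, prior of 1.31 degrees of freedom), with Benjamini-Hochberg adjustment; the fit was tested on simulated data. CT differences were compared by exact permutation over samples. The labels call the samples biological replicates. The array number, 3 per group, limits the precision. In their deviations from the group means, same-numbered samples had correlations over 350 miRNAs of 0.150, 0.224 and 0.431 for replicates 1, 2 and 3. Only the replicates 3 stood out. Replicate 1 of EC-Dicerflox correlated more with replicate 2 of EC-DicerWT (0.285), and replicate 2 of EC-Dicerflox less with replicate 1 of EC-DicerWT (0.117). Replicates 1 and 2 thus did not clearly pair by number, and comparisons by replicate number rest on an assumed pairing.

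The members, relatives, marker lists and alternatives were chosen with earlier results of these data known. Named are the members, their relatives and passenger strands, the markers and, per member, the 3 nearest miRNAs. As alternatives, delta CT was taken from other control RNAs, from controls of the same card, or from the median or mean over miRNAs. The others were wells at 40 left missing, CT values above 35 set to 35, other filters, other estimates of the spread, the replicate number as a block and each sample left out. Leaving out both replicates 3 (fold changes, paralog differences and cluster means), leaving miR-363 and miR-25 out of the cluster means, and leaving out samples in the SD of CT differences were chosen after seeing the data.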

Additional observations from a re-analysis of the deposited data

How the results depend on the processing

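No member reached an unadjusted limma p-value under 0.05 in any of 22 alternatives (lowest 0.257, miR-363 without EC-DicerWT replicate 2), but the signs of these small estimates depended on the setting. With snoRNA135 alone, the log2 fold change was -0.083 for miR-106b and -0.047 for miR-93. With snoRNA202 alone, it was -0.16, -0.12 and, for miR-106a, -0.060. With U6, snoRNA135 and snoRNA202, it was -0.053 for miR-106b and -0.017 for miR-93, and with controls of the same card -0.055 and -0.019. With U6 alone, it was 0.0062 for miR-20b. Without both replicates 3, it was -0.14 for miR-106b, -0.14 for miR-93, -0.014 for miR-25, -0.054 for miR-106a and -1.54 for miR-363, and the difference of miR-363 minus miR-25 was 1.53 cycles. Leaving out 1 sample at a time moved the log2 fold change from -0.40 to 0.44 for miR-106b, -0.21 to 0.27 for miR-93, -0.21 to 0.57 for miR-25, -0.12 to 0.22 for miR-106a, -0.25 to 0.11 for miR-20b and -0.57 to 1.76 for miR-363. It moved the paralog difference from -0.29 to 0.24 cycles for miR-106a minus miR-106b and from -1.40 to 0.87 cycles for miR-363 minus miR-25, and the difference between the cluster means from -0.50 to 0.37 cycles (0.50 without both replicates 3), while that of miR-20b minus miR-93 stayed between 0.036 and 0.16. With the replicate block, no call changed (miR-363 0.54, unadjusted limma p-value of 0.792), nor did an exact sign-flip test of the paralog differences (p from 0.25, the smallest that 3 pairs allow, to 1). Over all miRNAs, 9 were lower and 5 higher at an unadjusted p-value under 0.05; 14 were lower with snoRNA202 alone, and 3 were higher with U6 alone, 14 with an ordinary linear model, 8 with trend and robust moderation, 8 without both replicates 3 and 4 to 10 with 1 sample left out. The cause was not tested. With wells at 40 left missing the paralog differences were the same, since every member had a signal in all aortas.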
